A study of Mus musculus with 22 samples.

Results

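The genes described here are the matrix metalloproteinases (Mmp), their tissue inhibitors (Timp), the secreted ADAMTS proteinases (Adamts) and the ADAMTS-like proteins (Adamtsl), which were followed in the contused mouse spinal cord. A probe was taken as a member if the only gene symbol that the probe-to-gene table gives it is Mmp, Timp, Adamts or Adamtsl followed by a number, with or without a final letter. This rule used no measured value and found 46 of the 19087 genes that the table names, with 83 of 43379 probes: 20 Mmp, 4 Timp, 17 Adamts and 5 Adamtsl genes. Of these genes, 24 have several probes. Mmp9 has 11 probes and Timp1 has 3, in each case annotated to 1 transcript, so their probes share a target and are not independent.

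Adult female C57BL/6 mice aged 3 to 4 months were compared in 8 groups: GFAP-IκBα-dn transgenic mice (IκBα-dn mice) and their wild-type littermates (WT mice), each naive or taken at 3 days, 3 weeks or 6 weeks after a moderate contusion of the thoracic cord. The transgene expresses a truncated inhibitor of NF-κB from the GFAP promoter, that is, in astrocytes. RNA came from a whole piece of cord around the lesion, and each 2-colour array set 1 mouse against another. The 21 arrays analysed held 23 mice, 3 in each group except WT mice at 3 weeks, with 2. Of the arrays, 10 held both genotypes at 1 time (3 arrays of naive mice, 2 of 3 days, 2 of 3 weeks and 3 of 6 weeks) and 11 held 2 time points of 1 genotype (5 WT and 6 IκBα-dn). Another array, for 1 of whose mice the labels name both 3 days and 3 weeks, was not used.

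Array SDs of the log2 ratio ran from 0.37 to 0.74 and array medians from −0.08 to 0.05. The values are ratios, so the level of a gene in a sample, its share of the RNA and the cell type it comes from cannot be read from them. In a piece of cord, fewer cells of a type and less RNA per cell cannot be told apart. In arrays that are quoted singly, the ratio is given as the first-named mouse over the other, on the log2 scale and with the fitted dye effect taken out. Fold changes are fitted on all arrays with limma. A probe is called where its Benjamini-Hochberg p, taken across the whole array, is under 0.05.

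Mmps cut collagens, laminins, elastin and other matrix proteins as well as cytokines and receptors. They are made as inactive proenzymes that other proteinases, plasmin and other Mmps among them, cut open, and Timps bind and block the active site. Adamts enzymes carry thrombospondin repeats in place of the Mmps' haemopexin domain. Several of them cut the chondroitin sulfate proteoglycans of the cord, such as aggrecan, brevican and versican, and others trim procollagens. Adamtsl proteins resemble them but have no catalytic domain. In spinal cord injury these enzymes are known for opening the blood-spinal cord barrier early and for remodelling the scar later.

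A cluster of 8 of the Mmp genes lies on mouse chromosome 9, and the AP-1 site in the proximal promoter of many Mmp genes is a textbook feature of their induction by cytokines. The RefSeq promoter table (GRCm38.p6, 250 bases before to 50 after each start) held 31 of the 46 genes, with 34 starts. A match to the AP-1 motif TGANTCA, which reads the same on both strands, lay in 7 of these 34 windows (20.6%), against 7.81% of all 32851 windows in the table. All 7 were in the chromosome 9 cluster. The NF-κB consensus (the κB motif, both strands) lay in 6 windows (17.6%), against 8.46% of all windows: those of Adamts9, Adamts13, Adamts20, Adamtsl2, Mmp25 and the upstream start of Mmp12. No window was held for Mmp2, Mmp9, Mmp16, Mmp17, Mmp19, Adamts4, Adamts5, Adamts6, Adamts7, Adamts8, Adamts10, Adamts15, Adamts16, Adamts19 and Adamtsl1. Those genes were not searched for either motif. A match is a description of letters and not a site. The 110 bases before the start are shown for Mmp3, Mmp8, Mmp12 and Mmp13, neighbours in the cluster whose ratios are set side by side below, with the AP-1 match in capitals. All lie on the + strand, at chr9:7272404-7272513 for Mmp13, chr9:7347264-7347373 for the downstream start of Mmp12, chr9:7445712-7445821 for Mmp3 and chr9:7558319-7558428 for Mmp8.
Mmp13: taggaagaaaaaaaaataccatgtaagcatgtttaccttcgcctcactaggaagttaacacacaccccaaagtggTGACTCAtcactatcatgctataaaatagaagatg
Mmp12: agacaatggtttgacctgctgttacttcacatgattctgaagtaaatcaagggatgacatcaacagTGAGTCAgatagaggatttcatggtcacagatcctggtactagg
Mmp3: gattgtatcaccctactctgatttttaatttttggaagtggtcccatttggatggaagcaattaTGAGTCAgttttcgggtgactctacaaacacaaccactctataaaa
Mmp8: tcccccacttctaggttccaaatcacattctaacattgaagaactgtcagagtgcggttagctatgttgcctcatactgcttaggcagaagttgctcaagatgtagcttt
The match begins at base −35 in Mmp13, −44 in Mmp12 and −46 in Mmp3, counted back from the start, and the Mmp8 window holds none. The other cluster members with a match were Mmp1a (−73), Mmp10 (−63), Mmp20 (−95) and the first start of Mmp7 (−63).

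Between the genotypes, the members differed at 6 weeks. There, 24 of the 83 probes (28.9%) passed the test, 11 higher and 13 lower in IκBα-dn cords, against 19.9% of all probes (7.89% higher and 12.1% lower). Of the 13 lower probes, 10 belong to Mmp9. Without Mmp9, 14 of 72 probes were called, a share like that of all probes. By gene, 10 genes were higher in IκBα-dn cords (Mmp2, Mmp3, Mmp8, Mmp11, Mmp14, Mmp19, Adamts7, Adamts9, Adamts10 and Adamts20) and 3 were lower (Mmp9, Mmp17 and Adamts3). The median log2 ratio was 0.11 over the member probes and 0.02 over all probes. Before 6 weeks no member was called between the genotypes, whether naive, at 3 days or at 3 weeks, against 0% of all probes in each of these comparisons. At an unadjusted p under 0.05 0 member probes differed in naive cords, 10 did at 3 days and 7 at 3 weeks, the 7 being probes of Mmp9. Over all 43379 probes the corresponding numbers were 1190, 3004 and 971.

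**Figure D1:**
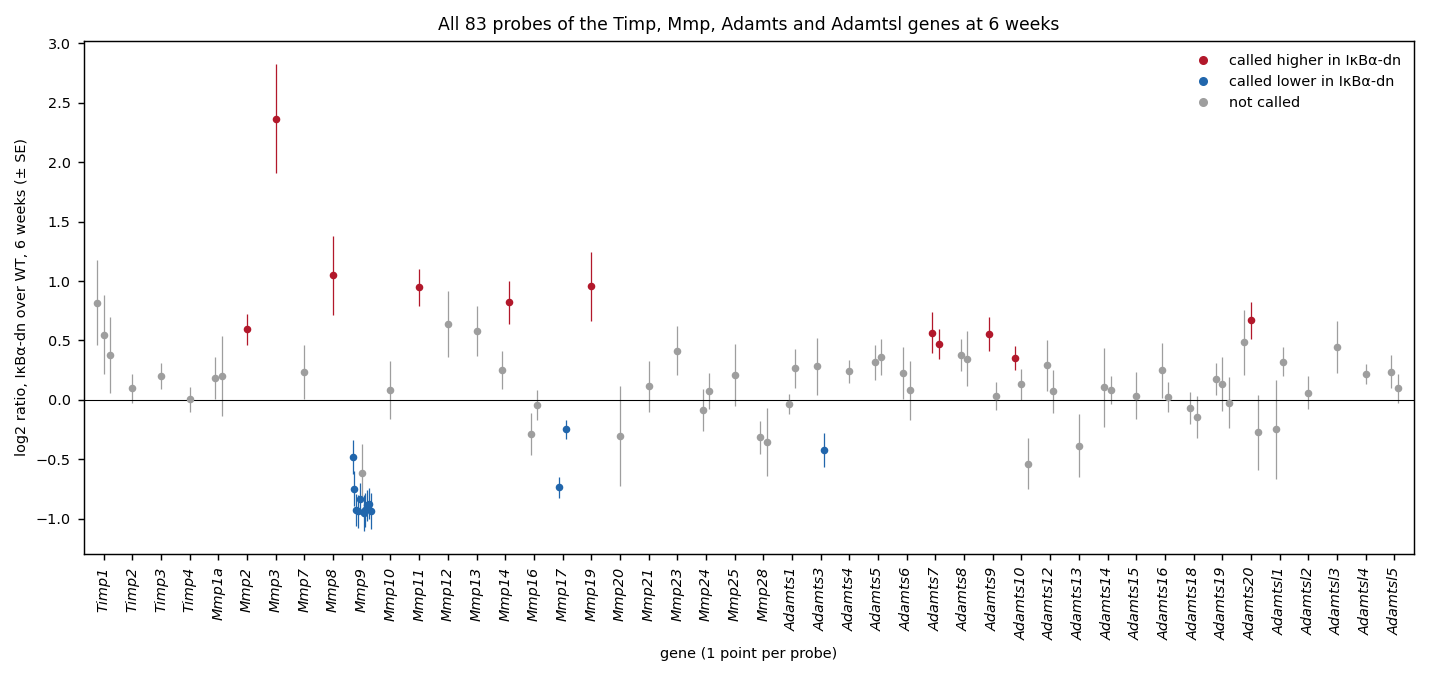
The fitted log2 ratio of IκBα-dn over WT cords at 6 weeks (y axis, with SE) for each of the 83 probes, grouped by gene along the x axis. Mmp3 stands at the top with 2.37, and the 11 Mmp9 probes lie below 0, between −0.95 and −0.48.

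The count at 6 weeks rests on few mice. Leaving out IκBα-dn mouse 2 gave 15, and leaving out WT mouse 2 gave 14. It was 23 when only the arrays that hold both genotypes were used, and 3 when the 3 such arrays at 6 weeks were left out. The count over all 43379 probes moved too, from 8653 in the main fit to 5398, 4153, 6397 and 803 in these 4 fits.

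Mmp3, stromelysin-1, which cuts proteoglycans and laminin and activates other proMmps, had the largest fitted difference of the 83 probes at 6 weeks. On the 3 arrays that set an IκBα-dn against a WT mouse, its log2 ratio was 3.16 (IκBα-dn mouse 1 over WT mouse 3), 3.70 (IκBα-dn mouse 2 over WT mouse 2) and 0.36 (IκBα-dn mouse 3 over WT mouse 1). The first pairs were thus far apart and the last pair close. The fit gave 2.37 ± 0.46 (SE), a 5.16-fold higher level in IκBα-dn cords (adjusted p = 0.00177, n = 3 mice per genotype). The other ratios of Mmp3 between the genotypes were 0.73, 0.08 and −0.07 in naive mice, −0.19 and 0.46 at 3 days, and 0.31 and −1.83 at 3 weeks. On the array with the ratio of 0.36 the median of 12 fibroblast markers was −0.26, while it was 1.22 and 1.11 on the arrays with 3.16 and 3.70. The part of fibroblasts in the Mmp3 ratio was not tested.

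Mmp8, the collagenase stored in neutrophil granules, was 2.07-fold higher in IκBα-dn cords at 6 weeks. Its log2 ratios were 0.95, 1.35 and 1.08, in the same order of mouse pairs, all above those in naive mice (0.23, −0.16 and 0.05). The fit gave 1.05 ± 0.33 (SE, adjusted p = 0.0351), and leaving out any of the 6 mice ended the call. Of 10 neutrophil markers, 3 were also called higher, S100a8 (2.19 ± 0.72), S100a9 (2.11 ± 0.61) and Mpo (0.58 ± 0.20), with list medians of 0.36, 0.48 and 0.32 on the 3 arrays. Their part in the Mmp8 ratio was not tested. The other collagenases were not called. Mmp13 had log2 ratios of 0.83, 1.01 and 0.43 and a fitted ratio of 0.58 (adjusted p = 0.0628), and the 2 probes of Mmp1a had 0.18 and 0.20.

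Among the neighbours on chromosome 9, Mmp3 and Mmp8 were thus called at 6 weeks, and Mmp13 (0.58), Mmp12 (0.64), Mmp7 (0.24), Mmp1a, Mmp10 (0.09) and Mmp20 (−0.30) were not. Of these neighbours, all but Mmp8 have an AP-1 match in a window, and a link between match and ratio was not tested. Mmp10, the second stromelysin, had log2 ratios of −0.12, 0.23 and 0.15.

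Mmp2, the gelatinase that many cells of the vessel wall and meninges make, and Mmp14, the membrane-bound enzyme that activates it, were both higher in IκBα-dn cords at 6 weeks. Mmp2 had log2 ratios of 0.80, 0.75 and 0.17 on the 3 arrays, against 0.22, −0.35 and 0.09 in naive mice. The lowest of the 3 again came from IκBα-dn mouse 3 over WT mouse 1. The fit gave 0.59 ± 0.13 (SE, 1.51-fold, adjusted p = 0.00509), and the call was lost without IκBα-dn mouse 1 or 2 or WT mouse 2. Mmp14 had 0.74, 0.67 and 0.67 at probe 27628, so that the pairs hardly differed, and the fit gave 0.82 ± 0.18 (SE, 1.77-fold, adjusted p = 0.00443). Its other probe, annotated to the same transcript, had 0.19, 0.34 and 0.00, with a fitted ratio of 0.25, and was not called, so that the probes of Mmp14 disagree in size. The mean over both probes was called.

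Mmp9, the other gelatinase, went the opposite way to Mmp2. Of its 11 probes, 10 were called lower in IκBα-dn cords at 6 weeks, with fitted log2 ratios between −0.95 and −0.48. At probe 696, which stands for the gene, the ratios were −0.42, −0.30 and −0.73, against 0.23, 0.03 and −0.06 in naive mice, and the fit gave −0.48 ± 0.15 (SE, adjusted p = 0.0281), a call lost without IκBα-dn mouse 3 or any WT mouse. At probe 26189, the lowest, they were −0.59, −0.87 and −1.32. All 33 ratios of the 11 probes on these 3 arrays were below 0. The same arrays had medians of −0.65, −0.87 and −0.93 over 14 neuron markers, of which 9 were called lower and 0 higher, and 3 of 10 neutrophil markers were called higher. Whether Mmp9 moved with either cell type was not tested. The fitted ratios of the Mmp9 probes lay between −0.36 and −0.18 at 3 days and between 0.13 and 0.60 at 3 weeks, with none called at either time. At probe 696 the arrays gave 0.15 and −0.51 at 3 days, the second lower than −0.42 and −0.30 at 6 weeks. At 3 weeks they gave 0.35 and 0.30.

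Mmp17, a proteinase held in the membrane by a glycolipid anchor, was lower in IκBα-dn cords at 6 weeks at both of its probes. Its log2 ratios at probe 11524 were −0.57, −0.77 and −0.78, below each of the 7 ratios at other times (−0.48 to 0.04). The fit gave −0.74 ± 0.09 (SE, 1.67-fold lower, adjusted p = 3.29e-05), and none of its 18 alternative fits ended this call. At the other probe the ratios were −0.26, −0.34 and −0.18 and the fit gave −0.25 ± 0.08 (SE, adjusted p = 0.0329). The neuron markers Slc17a6 (−1.12), Slc6a5 (−1.97) and Glra1 (−1.04) were lower in the same comparison, and their part in the Mmp17 ratio was not tested. Of the other membrane-bound members, Mmp14 was called higher, as given above, and Mmp16, Mmp24 and Mmp25 had fitted ratios between −0.29 and 0.21 and were not called.

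Mmp11 and Mmp19 were both higher in IκBα-dn cords at 6 weeks. Mmp11, stromelysin-3, which furin activates inside the cell and which is typical of fibroblasts next to remodelling tissue, had log2 ratios of 1.09, 0.98 and 0.64, above every ratio at the other times (−0.29 to 0.62). The fit gave 0.95 ± 0.16 (SE, 1.93-fold, adjusted p = 0.000481). Mmp19, which cuts basement membrane proteins, had 0.50, 1.10 and 1.05, but 1 array at 3 days reached 1.02. Its fit gave 0.95 ± 0.29 (SE, 1.94-fold, adjusted p = 0.0295), and the call was lost without IκBα-dn mouse 2 or 3 or WT mouse 1 or 2.

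Of the remaining Mmp genes, Mmp12, the elastase of macrophages, had log2 ratios of 0.38, 0.84 and 0.82 and a fitted ratio of 0.64 ± 0.28 (SE, adjusted p = 0.124) and was not called. Mmp7, Mmp20, Mmp21, Mmp23 and Mmp28 had fitted ratios between −0.35 and 0.41 with no call.

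None of the 4 inhibitors was called between the genotypes. Timp1, the inducible member, had log2 ratios of 0.36, 1.04 and 1.02 at 6 weeks at probe 25054 and a fitted ratio of 0.82 ± 0.36 (SE, adjusted p = 0.127), and its other probes had fitted ratios of 0.55 and 0.38. At 3 days the arrays gave 0.34 and 1.28 at the same probe, so the pairs of mice differed widely. Timp2, which also takes part in the activation of Mmp2 by Mmp14, had 0.25, −0.22 and 0.25 (fitted 0.10). Timp3, which stays bound to the matrix and also blocks Adamts enzymes, had 0.09, 0.54 and −0.14 (fitted 0.20). Timp4 had −0.23, 0.15 and 0.09 (fitted 0.00).

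Of 17 Adamts genes, 4 were higher and 1 was lower in IκBα-dn cords at 6 weeks. A gene was counted where any of its probes was called. The family has 34 probes, and the calls came from both probes of Adamts7 and 1 probe of each other called gene. The whole array had 19.9% of its probes called in this comparison, 7.89% upward and 12.1% downward. Counted by probe, the family's share of calls was near that of the whole array, and the difference was not tested. Adamts7, which cuts the cartilage matrix protein Comp, was higher at both probes, with log2 ratios of 0.65, 0.83 and 0.26 at probe 17814 (fitted 0.57 ± 0.17, adjusted p = 0.0297) and 0.68, 0.65 and 0.21 at probe 32256 (fitted 0.47 ± 0.12). The call at probe 17814 was lost without any IκBα-dn mouse or WT mouse 2 or 3. On the 2 arrays of both genotypes at 3 weeks this probe already had 0.75 and 0.30. No change in the genotype difference of Adamts7 from naive or from 3 weeks to 6 weeks was called. The Adamts7 substrate Comp was also higher at 6 weeks (0.89 ± 0.15, adjusted p = 0.000594). Adamts9 and Adamts20, close relatives that cut versican, were called at 1 probe each. Adamts9 had 0.52, 0.66 and 0.35 (fitted 0.56 ± 0.14, adjusted p = 0.0119), with a fitted ratio of 0.03 at its other probe, and the call was lost without IκBα-dn mouse 1 or 2 or WT mouse 2. Adamts20 had 0.59, 0.44 and 0.78 at probe 39751 (fitted 0.67 ± 0.16, adjusted p = 0.00625), with 0.48 and −0.27 at its other probes, and the call was lost without WT mouse 1.

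Adamts10, a protein of fibrillin microfibrils, was called higher at 1 of its 3 probes (0.36, 0.48 and 0.13, fitted 0.35 ± 0.10, adjusted p = 0.0202). Its other probes had 0.13 and −0.54, and the mean over its probes was −0.02, so that its direction depends on the probe. The call was lost without IκBα-dn mouse 1 or 2 or WT mouse 2 or 3. Adamts3, which removes the amino-terminal propeptide of procollagen, was called lower at probe 42032 (−0.22, −0.48 and −0.59, fitted −0.42 ± 0.14, adjusted p = 0.0436) with 0.28 at its other probe. This call was lost in 12 of 18 alternative fits, among them those without any IκBα-dn mouse or WT mouse 1 or 2, and the mean over both probes was −0.07. The aggrecan-cutting Adamts1, Adamts4, Adamts5, Adamts8 and Adamts15 were not called, with fitted ratios between −0.04 and 0.38. The other Adamts genes (Adamts6, Adamts12, Adamts13, Adamts14, Adamts16, Adamts18 and Adamts19) lay between −0.39 and 0.29, and the 5 Adamtsl genes between −0.25 and 0.45, with no call.

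**Figure D2:**
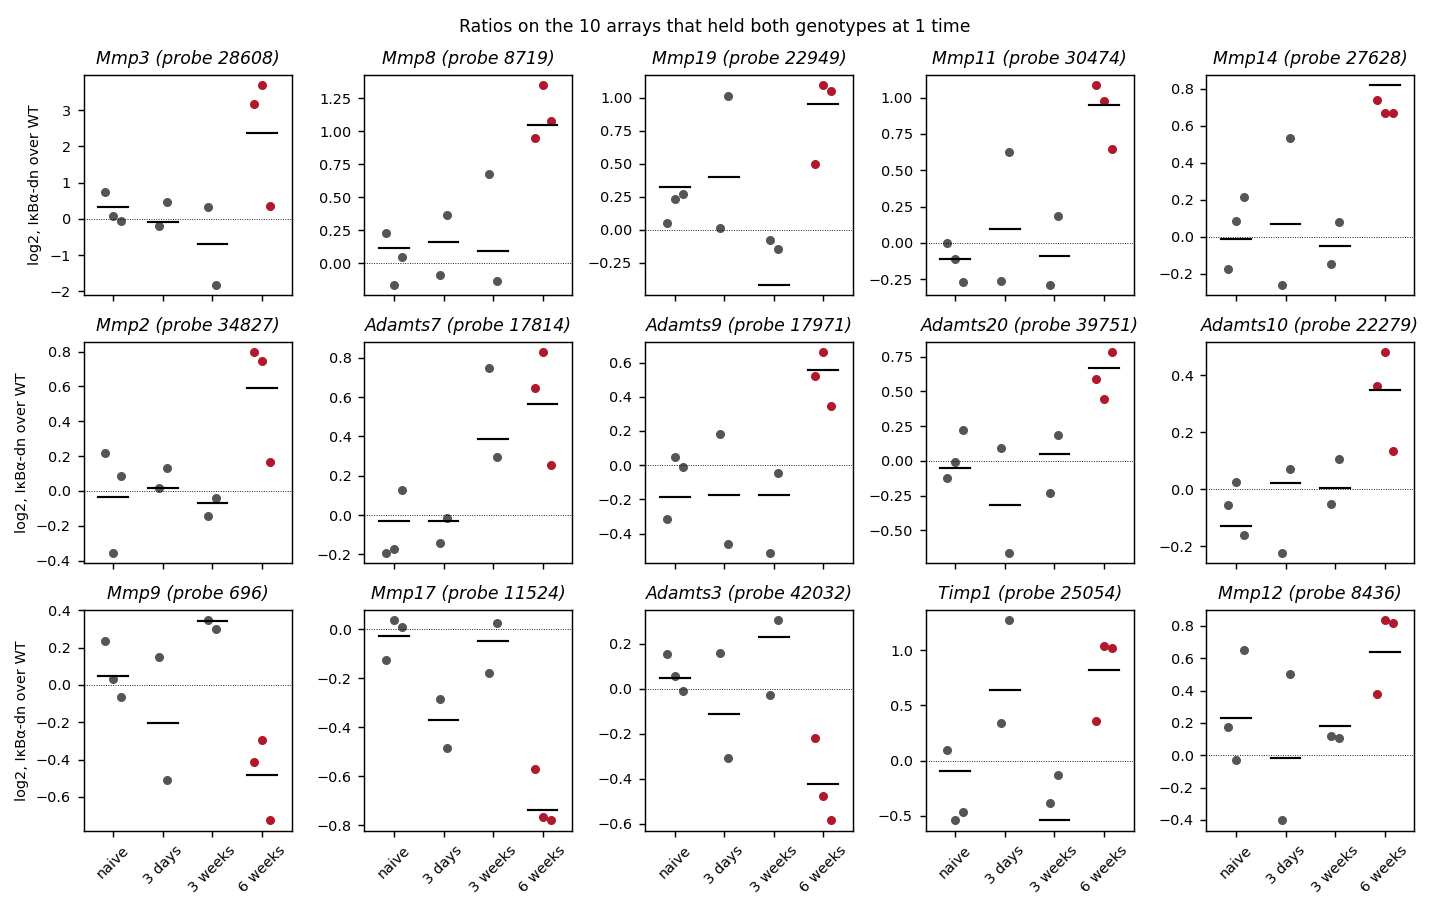
Log2 ratio of IκBα-dn over WT cords (y axis) on each of the 10 arrays that held both genotypes, by time (x axis), for the 13 genes called at 6 weeks and for Timp1 and Mmp12. Points are arrays, red at 6 weeks, and bars are values fitted on all 21 arrays, 2.37 for Mmp3 and −0.74 for Mmp17 at 6 weeks.

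Over time, Timp1, an inhibitor that injured tissue is known to induce, was called higher than naive in 5 of the 6 comparisons. In IκBα-dn cords its log2 ratio to naive was 1.86 at probe 25054 on the array that held 3 days against naive, 2.12 on that for 3 weeks and 2.18 on that for 6 weeks. In WT cords the corresponding arrays gave 3.02, 1.57 and 1.90. Fitted on all arrays, Timp1 was 6.55-fold higher at 3 days in IκBα-dn cords (2.71 ± 0.42, adjusted p = 0.0011) and 3.92-fold higher in WT cords (1.97 ± 0.41, adjusted p = 0.0264). At 3 weeks it was called at 1 of 3 probes in IκBα-dn cords (probe 27810, 1.98 ± 0.39, adjusted p = 0.0284) and at all 3 in WT cords (2.17 ± 0.45 at probe 25054). At 6 weeks it was called at all 3 in IκBα-dn cords (2.49 ± 0.42, 5.60-fold) and at none in WT cords, where the fitted ratio was still 1.57. The difference of the genotypes at 6 weeks did not pass the test. At probe 25054 the WT call was lost at 3 days without mouse 1 or 3 or naive mouse 1 or 3, and at 3 weeks without any of the WT mice at 3 weeks or naive.

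The comparisons of 1 genotype with naive share their naive mice. Relative to naive, 16 of 83 member probes were called in IκBα-dn cords at 3 days (7 higher and 9 lower), against 6.45% of all probes (5.18% higher and 1.27% lower). At 3 weeks 1 was called, against 0.634% of all probes (0.606% higher and 0.0277% lower). At 6 weeks 33 were called (19 higher and 14 lower), against 25.8% of all probes (11.6% higher and 14.2% lower). Without the probes of Mmp9, 8, 1 and 23 of 72 were called at 3 days, 3 weeks and 6 weeks. In WT cords 4 were called at 3 days, all higher, against 1.98% of all probes (1.8% higher and 0.182% lower). At 3 weeks 5 were called (3 higher and 2 lower), against 1.07% (1.01% higher and 0.0645% lower), and at 6 weeks 1 was called, against 0.728% (0.636% higher and 0.0922% lower). That a gene passed the test in 1 genotype and not in the other does not show a difference between them.

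**Figure D3:**
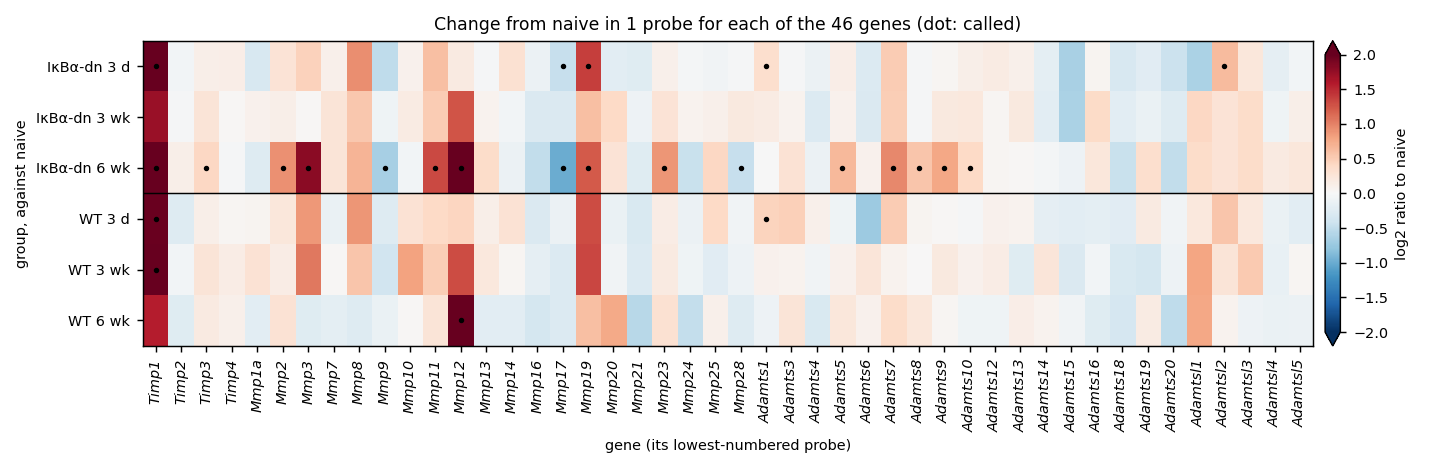
Log2 ratio to naive cords (colour, red higher and blue lower, cut at 2 in each direction) for the lowest-numbered probe of each of the 46 genes (columns) at 3 times in IκBα-dn and WT cords (rows), with a dot where that probe was called. Timp1 is red in every row and Mmp12 deepens up to 6 weeks, with fitted ratios of 2.61 in IκBα-dn and 2.20 in WT cords.

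At 3 days, IκBα-dn cords had 5 genes higher and 2 lower than naive. Besides Timp1, Mmp19 was 2.59-fold higher (1.38 ± 0.34, adjusted p = 0.024), with 0.55 on the array that held both groups, a call lost without mouse 2 or 3 at 3 days or naive mouse 2 or 3. In WT cords Mmp19 had 2.21 on the corresponding array and a fitted ratio of 1.30, and was not called. Mmp16, a membrane-bound Mmp, had 0.38 on its array and a fitted ratio of 0.65 ± 0.15 at probe 17155, and −0.11 at its other probe. Adamtsl2, which binds fibrillin microfibrils, had 0.77 and 0.63 ± 0.16. Adamts1, an aggrecan- and versican-cutting enzyme, had 0.26 and 0.34 ± 0.10 in IκBα-dn cords, and 0.55 and 0.45 ± 0.09 in WT cords, where it was called as well (adjusted p = 0.0264). Mmp9 was lower at 8 of 11 probes in IκBα-dn cords, by 0.62 to 0.80, and Mmp17 at 1 of 2 (−0.57 on the array, fitted −0.46 ± 0.10).

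These counts at 3 days were sensitive to single mice. In IκBα-dn cords 5 member probes were called without mouse 1 at 3 days, 8 without mouse 2, 5 without naive mouse 1 and 7 without naive mouse 3. Over all probes the corresponding counts were 2053, 1830, 2329 and 1385, against 2798 with all mice. Without mouse 1 at 3 days, or without naive mouse 1, the lower calls numbered 0, against 9 with all mice, so that every lower call of Mmp9 and Mmp17 was lost. These mice share the array that held 3 days against naive. The Adamts1 call was lost without any of the mice in IκBα-dn cords, and in WT cords without mouse 1 or 3 at 3 days or any naive mouse. That of Adamtsl2 was lost without mouse 1 or 2 at 3 days or any naive mouse, and that of Mmp16 without mouse 3 at 3 days or naive mouse 2 or 3. In WT cords 0 were called without mouse 1 or 3 at 3 days or without naive mouse 1 or 3, and 11 without mouse 2 at 3 days. Over all probes these counts were 0, 0, 0, 2 and 2762, against 859 with all mice. In the same comparison, microglia and macrophage markers were called higher in 9 of 16 genes in IκBα-dn cords (median 1.04) and in 6 of 16 in WT cords (median 0.83), and their part in the members' ratios was not tested.

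At 3 weeks the calls were few. In IκBα-dn cords the Timp1 call was lost without any of the mice at 3 weeks and without naive mouse 2 or 3. In WT cords, Timp1 was higher and 2 of 11 Mmp9 probes were lower (−0.72 ± 0.16 at probe 33672, with −0.84 on the array of WT mouse 1 over naive mouse 2). The 5 calls became 3, 1 and 1 without naive mouse 1, 2 and 3. Over all probes the count went from 464 to 200, 214 and 273. Leaving out a WT mouse at 3 weeks left 1 in that group, and those counts are not given. Mmp12 had log2 ratios of 1.36 in IκBα-dn and 0.91 in WT cords on the arrays of 3 weeks over naive, and was not called in either.

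At 6 weeks, Mmp12 was higher than naive in both genotypes. Its log2 ratio on the array of 6 weeks over naive was 2.59 in IκBα-dn cords and 1.44 in WT cords, and on the arrays of 6 weeks over 3 days it was 2.60 and 2.66. The fit gave 2.61 ± 0.32 in IκBα-dn cords (adjusted p = 1.9e-05) and 2.20 ± 0.33 in WT cords (adjusted p = 0.0091), where it was the only member called. Of 16 microglia and macrophage markers, 13 were called higher in IκBα-dn cords and 3 in WT cords at this time, with medians of 1.13 and 0.93, and their part in the Mmp12 ratio was not tested.

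In IκBα-dn cords at 6 weeks, 16 genes were higher and 4 lower than naive. After Mmp12 and Timp1, the largest increases were those of Mmp3 (2.10 on the array of IκBα-dn mouse 1 over naive mouse 3, fitted 1.80 ± 0.53, adjusted p = 0.0187), Adamts20 (1.52, fitted 1.35 ± 0.18), Mmp11 (1.27, fitted 1.31 ± 0.18) and Mmp19 (1.41, fitted 1.23 ± 0.34). In WT cords the array of 6 weeks over naive gave 0.20 for Mmp3 (fitted −0.24 ± 0.55), 0.35 for Adamts20 (fitted 0.63 ± 0.19), 0.17 for Mmp11 (fitted 0.25 ± 0.19) and 0.24 for Mmp19 (fitted 0.60 ± 0.35), with none called. In IκBα-dn cords the Mmp3 call was lost without mouse 1 or 2 at 6 weeks or naive mouse 1 or 3, and the Mmp19 call without mouse 1 or 3 at 6 weeks or naive mouse 3. Adamts7 (0.97 ± 0.20), Mmp2 (0.91 ± 0.15), Mmp23 (0.88 ± 0.24), Adamtsl1 (0.85 ± 0.14), Adamts9 (0.78 ± 0.17) and Mmp14 (0.68 ± 0.21) followed. The aggrecan-cutting Adamts5 was higher at both probes (0.65 ± 0.17 and 0.79 ± 0.18) and Adamts8 at 1 of 2 (0.55 ± 0.16). Timp3 (0.42 ± 0.13) and Adamts10 (0.40 ± 0.12) rose least. At the uncalled probes, Adamts20 had −0.49 and −0.40, Mmp14 had −0.12 and Adamts10 had 0.18 and −0.50, so that their direction depends on the probe. Adamts7, Adamts9 and Adamtsl1 were also called at only 1 of 2 probes each.

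The genes that fell were Mmp9, Mmp17, Adamts3 and Mmp28. Mmp9 was lower at 10 of 11 probes in IκBα-dn cords, by 0.66 to 1.40, with −0.36 at probe 696 and −1.21 at probe 26189 on the array of 6 weeks over naive. In WT cords the same array position gave −0.39 and −0.47. Mmp17 was lower at both probes (−0.99 ± 0.10 and −0.32 ± 0.09), with −0.97 at probe 11524 on the array in IκBα-dn cords and −0.31 in WT cords. Adamts3 (−0.55 ± 0.16) and Mmp28, epilysin (−0.46 ± 0.16), fell at 1 of 2 probes each. At the other probe Adamts3 had 0.28 and Mmp28 had 0.18, neither called, so that their direction depends on the probe. Fibroblast markers were called higher in 8 of 12 genes (median 1.16) and neuron markers lower in 10 of 14 (median −0.96) in this comparison, and neither list's part was tested.

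**Figure D4:**
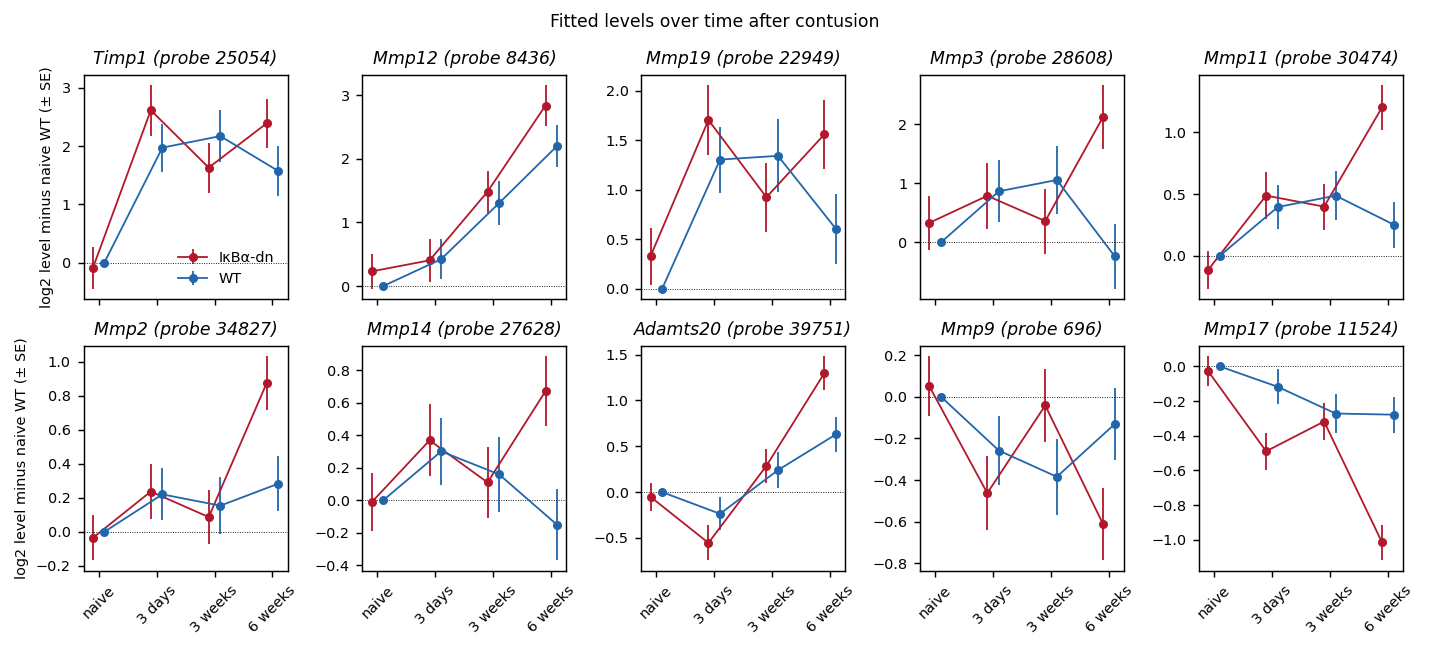
Fitted log2 level minus that of naive WT cords (y axis, with SE) at 4 times (x axis) in IκBα-dn and WT cords for 10 genes. At 6 weeks Mmp3 stands at 2.13 in IκBα-dn and −0.24 in WT cords, while Mmp12 stands at 2.84 and 2.20.

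Whether the difference between the genotypes itself changed with time was tested as an interaction. Between naive and 6 weeks it changed at 16 member probes (6 upward and 10 downward), against 9.21% of all probes (3.03% upward and 6.18% downward). Of the 10 downward, 9 were probes of Mmp9, and the other was Mmp17 (−0.71 ± 0.12, adjusted p = 0.00166). Upward, they were Mmp11 (1.06 ± 0.21), Mmp14 (0.83 ± 0.25), Adamts9 (0.74 ± 0.20), Adamts20 (0.72 ± 0.21), Mmp2 (0.63 ± 0.18) and Adamts10 (0.48 ± 0.14). Without Mmp9, the change from naive was called at 7 of 72 probes, a share like that of all probes. Between 3 and 6 weeks the genotype difference changed at 14 member probes (3 upward and 11 downward), against 8.36% (2.35% upward and 6.01% downward). Mmp3 (3.06 ± 0.70, adjusted p = 0.0128), Mmp11 (1.04 ± 0.24) and Adamts9 (0.73 ± 0.22) went upward, and Mmp17 and 10 probes of Mmp9 downward. Without Mmp9, 4 of 72 probes were called, a share below that of all probes. The count of 16 became 10 without IκBα-dn naive mouse 3, WT naive mouse 3 or WT mouse 2 at 6 weeks. Over all probes the count went from 3995 to 2190, 1879 and 1743. The count of 14 became 9 without WT mouse 2 at 6 weeks, against 1513 of all probes, where all mice gave 3627. It was 0 when only the arrays that hold both genotypes were used, against 0 of all probes. Leaving out a WT mouse at 3 weeks left 1 in that group, and those counts are not given.

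Genes that act on or around these enzymes were read from the same fit at 6 weeks, in which 19.9% of all probes were called (7.89% higher and 12.1% lower). Of 23 matrix substrates measured, 7 were higher and 0 lower in IκBα-dn cords, with a list median of 0.50, against 0.02 over all probes. Col1a1, the main chain of fibrillar collagen, had 1.78 ± 0.51, Nid1, which links laminin and collagen in basement membranes, 1.35 ± 0.26, and the laminin chain Lamc1 0.85 ± 0.13. The list medians on the 3 arrays were 0.61, 0.91 and 0.40. Of 24 cytokines, growth factors and transcription factors known to raise transcription of some Mmp genes, 9 were higher and 1 lower (median 0.47). Among them were Tgfb1 (0.89 ± 0.21), Tgfb3 (0.65 ± 0.09) and Il1b (0.86 ± 0.21), and Ets2 was the lower (−0.68 ± 0.10). Of 26 genes of plasminogen activation and other regulators, 1 was higher and 3 were lower (median 0.23), a share near that of all probes. Thbs2, a matrix protein that carries Mmp2 to its uptake receptor, had 0.59 ± 0.17. Bsg, the surface protein known as an inducer of Mmps, had −0.55 ± 0.12. Of the 13 membrane-anchored Adam genes, 2 were higher and 1 lower (median 0.29), again a share near that of all probes, the lower being Adam11 (−0.50 ± 0.09), which has no proteinase activity.

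Relative to naive, the substrates were called higher in 9 of 23 genes in IκBα-dn cords at 6 weeks (median 0.67) and in 0 in WT cords (median −0.10). Over all probes 11.6% were called higher in IκBα-dn cords and 0.636% in WT cords, and a difference between the genotypes is not read from these counts. Fn1, fibronectin, was the substrate called at 3 days, in IκBα-dn (1.99) and in WT cords (1.55). Il1b was called higher than naive at 3 days in IκBα-dn (1.32) and WT cords (1.06) and at 6 weeks in IκBα-dn (1.98) and WT cords (1.35).

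Markers of cell types were read from the same fit at 6 weeks, in which 7.89% of all probes were called higher and 12.1% lower. In IκBα-dn against WT cords, 6 of 14 endothelial and mural markers were higher (median 0.64, with Pdgfrb 1.16 and Acta2 1.05). Of 12 fibroblast markers, 3 were higher (median 0.47, with Fbln1 1.42 and Postn 1.38). Of 16 microglia and macrophage markers, 1 was higher (median 0.31), a share near that of all probes. Astrocyte markers, those of the cell type in which the promoter is active, had a median of 0.03, with 1 of 9 called (Sox9, 0.55). Oligodendrocyte markers had a median of 0.04, with 1 of 11 lower, and Schwann cell markers had 0.28, with 1 of 8 higher. How much of the members' ratios moved with these cells was not tested.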

How the data were processed

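The authors labelled total RNA of each mouse with Cy5 or Cy3, hybridized 2 mice to a whole-genome mouse array, read it on a GenePix instrument, removed features of poor quality and normalized with lowess within and the quantile method between arrays in limma, according to the study's methods. The deposited values were taken as log2 ratios of Cy5 over Cy3, since neither scale nor direction is stated. The direction was checked on microglia and macrophage markers, which were higher at 3 days than in naive cords. Of 43379 probes, none with a missing value, 33653 carry 1 symbol, 56 several and 9670 none.

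In R 4.3.3, limma 3.58.1 fitted the group of the Cy5 mouse minus that of the Cy3 mouse, with 1 dye term and a correlation of arrays that share a mouse (share of variance 0.43; residual degrees of freedom 13, prior 3.24, total 16.2), and Benjamini-Hochberg adjustment ran over the whole array in each comparison. A dye effect passed the test at 58.2% of probes and at 37 of 83 member probes. The number of mice limits the precision, and spot intensities were not used here. The fit was also run on data simulated from its own model, which cannot test whether that model holds for these arrays.

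The genes and lists were chosen with earlier results of these data known. Every member is accounted for. Given in full are the genes called at 6 weeks between the genotypes, in each comparison with naive up to 8 called genes with the largest change, and the Timps, Mmp2 and Mmp9. The lowest-numbered probe stands for a gene, or, where that probe was not called and another was, the called probe with the smallest p, an exception added after the values were seen. Of other lists, up to 4 genes with the smallest p are named. Alternatives were independent arrays, no dye term or 1 per array set (the number in the array code), terms for replicate number, the array left out for its labels taken at either time, arrays of both genotypes alone, centring, scaling, gene means, probes of 1 symbol, other thresholds, each mouse left out, and, chosen after seeing the data, no arrays of both genotypes at 6 weeks. Promoter sequences are from RefSeq (GRCm38.p6). The build of the array annotation is not given in the sources used here. Python 3.11.15 with matplotlib 3.10.9 drew the plots.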

Additional observations from a re-analysis of the deposited data

Results flagged for a closer look

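Tests of the interaction marked 8 genes whose difference between IκBα-dn and WT cords changed from naive to 6 weeks, and 5 that changed from 3 to 6 weeks. From naive to 6 weeks the log2 difference moved by −0.81 in Mmp9 (probe 5942, adjusted p = 0.0194), −0.71 in Mmp17, 0.74 in Adamts9, 0.48 in Adamts10, 0.83 in Mmp14, 1.06 in Mmp11, 0.63 in Mmp2 and 0.72 in Adamts20. From 3 to 6 weeks it moved by −0.82 in Mmp9 (probe 696, adjusted p = 0.0301), −0.69 in Mmp17, 0.73 in Adamts9, 3.06 in Mmp3 and 1.04 in Mmp11. Mmp9, Mmp17, Adamts9 and Mmp11 passed both tests, which share the mice at 6 weeks. Of 24 alternative fits, the change from naive was lost in 19 for Adamts20, 18 for Mmp14, 17 for Adamts10, 14 for Mmp2 and 10 for Adamts9, many of them with 1 mouse left out, and in 1 each for Mmp11 and Mmp17. With gene means it was 0.13 for Adamts20 and 0.17 for Adamts10, and single probes went the other way (−0.35 in Adamts20 and −0.26 in Adamts10). From 3 to 6 weeks, of 23 alternative fits, it was lost in 17 for Adamts9, 12 for Mmp9, 7 for Mmp3, 6 for Mmp11 and 5 for Mmp17. The 2 gelatinases moved in opposite directions from naive to 6 weeks.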

How the results depend on the processing

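Over 956 alternative values of 51 gene results, 662 kept direction and side of the threshold, 282 lost the call, 2 gained it and 10 turned. Adamts10 at 6 weeks between the genotypes turned to −0.0181 with gene means, and Timp2 to −0.00234 with the unused array taken as 3 weeks. Timp4 turned to −0.0443 with a dye term for each array set, −0.0135 with the replicate block, −0.0211 with arrays of both genotypes alone and −0.0129 without those at 6 weeks. With a mouse left out, Timp2 ran from −0.00029 to 0.239 and Timp4 from −0.0892 to 0.125. The cause was not tested.

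Counts of member probes called follow, many of them set against the count over all 43379 probes. Member counts between the genotypes before 6 weeks stayed at 0. Same-numbered mice share only a number, which arrays of 2 mice cannot test as a pairing. With the replicate block the count at 6 weeks between the genotypes was 23, against 7764. Relative to naive, calls in IκBα-dn cords were 6 and 0 at 3 days and 3 weeks, against 1219 and 5. In WT cords they were 0, 1 and 0 at 3 days, 3 weeks and 6 weeks, against 8, 139 and 33. With independent arrays they were 4 (IκBα-dn, 3 weeks), and 7, 8 and 2 in WT cords, against 511, 1332, 800 and 367. With no dye term they were 10 (IκBα-dn, 3 days), and 1 and 3 in WT cords at 3 days and 3 weeks, against 1578, 252 and 368. With a dye term for each array set they were 0 (IκBα-dn, 3 weeks), and 1 and 3 (WT, 3 and 6 weeks), against 144, 264 and 1094. The interaction from 3 to 6 weeks then gave 3, against 279. With arrays of both genotypes alone the interactions gave 6 and 0, against 1074 and 0. With the unused array taken as 3 days or as 3 weeks, WT at 6 weeks gave 2 each time, against 341 and 560. With probes of 1 symbol it gave 2, against 381 of 33653. With centring, IκBα-dn at 3 weeks gave 2 and WT 7 and 2 at 3 days and 6 weeks, against 435, 1123 and 408. With scaling, IκBα-dn and WT at 3 weeks gave 3 and 9, against 421 and 780.

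With gene means, which count genes, the genotypes at 6 weeks gave 9, against 5236 over all genes and probes without a single symbol. IκBα-dn against naive gave 6, 0 and 15, against 1623, 147 and 6656. WT gave 2 and 1 at 3 days and 3 weeks, against 362 and 255, and the interactions 5 and 4, against 2219 and 1947. At an adjusted p under 0.01 the genotypes at 6 weeks gave 15, against 4549 of all probes. Relative to naive at 3 days and 3 weeks, IκBα-dn gave 4 and 0, against 1203 and 29, and WT 0 and 1, against 2 and 122. The interactions gave 10 and 9, against 1602 and 1210. At 0.001 with a fold over 2 the genotypes at 6 weeks gave 0, against 556. IκBα-dn gave 1, 0 and 13, against 277, 0 and 2211, and WT 0 at each time, against 0, 1 and 0. The interactions then gave 0 and 2, against 261 and 167. Without the 3 arrays of both genotypes at 6 weeks, the comparison of the genotypes at 6 weeks gave 3, against 803. WT at 6 weeks gave 0, against 0, and the interactions 5 and 8, against 820 and 712. With a mouse left out, the genotypes at 6 weeks gave 14 to 22, against 4153 to 7405 of all probes. IκBα-dn gave 5 to 15, 0 to 1 and 23 to 33, against 1385 to 2329, 0 to 154 and 7769 to 10134. WT gave 0 to 11, 1 to 3 and 1, against 0 to 2762, 200 to 273 and 6 to 237. The interactions gave 10 to 16 and 9 to 14, against 1743 to 4676 and 1513 to 3659. Fits without a WT mouse at 3 weeks are not in these ranges, since 1 mouse was left in that group. Where leaving out a mouse left 1 or 2 in a group, they are assumed to vary like the others. Signal over background could not be read from ratios.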
